A study of Callithrix jacchus with 6 samples.

Results

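HCN2, HCN4, NALCN, UNC79 and UNC80, the 5 genes described here, encode or assemble cation channels active near the resting potential of neurons, which are known as targets of inhaled anaesthetics. They comprise the pore subunits HCN2 (ENSCJAG00000044532) and HCN4 (ENSCJAG00000045223), the sodium leak channel NALCN (ENSCJAG00000021036) and its large auxiliary subunits UNC79 (ENSCJAG00000018332) and UNC80 (ENSCJAG00000010773). They were chosen by name, with earlier results of these data known. All 5 symbols matched 1 row each among the 29320 genes of the count matrices.

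HCN channels open when the membrane hyperpolarizes, carry a mixed sodium and potassium current and are tuned by cyclic AMP. In the hippocampus they help set the resting potential and the integration of inputs along dendrites. NALCN passes a steady sodium leak that depolarizes the resting membrane, and it works in a complex with UNC79, UNC80 and NALF1. Volatile anaesthetics inhibit HCN currents in rodent neurons. Mutations of the NALCN, UNC79 and UNC80 orthologues alter anaesthetic sensitivity in nematodes and flies.

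The study took hippocampi from aged common marmosets (Callithrix jacchus) and prepared single-cell libraries after 6 h of sevoflurane, a volatile anaesthetic, or after 6 h of oxygen as the control. There were 3 sevoflurane and 3 oxygen libraries. Both groups shared the tissue, a collagenase digestion at warm temperature and freezing of the cells before the droplet step. The labels give no exact age and do not say whether each library came from its own animal, so the p-values measure the spread between these libraries, which may be technical.

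The libraries held 7103 to 8577 barcodes and 41164947 to 47886816 unique molecular identifiers (UMIs, the counted RNA molecules), with a median of 3269 to 4843 UMIs per barcode. After removal of 2238 presumed doublets, 44344 of 46582 cells fell into 34 clusters. Markers named 26 clusters, in 10 classes, each called "like" a cell type, and 8 clusters of 2741 cells stayed unnamed. Class names below are short for these marker-based calls, and OPC stands for oligodendrocyte precursor cell. Glutamatergic neurons were the largest class with 18055 cells, beside 8105 oligodendrocytes, 4898 astrocytes, 3777 GABAergic neurons, 1952 OPC, 1880 microglia and 739 endothelial cells. In total, 261 barcodes occurred in more than 1 library, at 0.181% to 0.328% of the smaller library of a pair.

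Sevoflurane replicate 3 stood apart from the other libraries in its neurons and oligodendrocytes. It held at most 15 cells of each of clusters 7, 10, 18, 19, 20 and 22, which include the dentate granule-like and hippocampal pyramidal-like neurons. It held 1154 of the 1446 cells of cluster 24, named RORB CUX2-like, and 1134 of the 1264 cells of cluster 26. Its oligodendrocytes stood apart as well, with 1081 of the 1346 cells of cluster 21 but 123 of the 4110 cells of cluster 5 and 95 of the 2649 cells of cluster 6. Clusters 7, 10, 18, 20 and 22 were therefore compared over the other 5 libraries. Most treatment differences that moved with sevoflurane replicate 3 are given without it as well, but pooled cluster levels are not.

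Levels are given as CPM, the UMIs of a gene relative to all UMIs of that class or cluster in a library, on the standard CPM scale. HCN2 and HCN4 were near the limit of detection, whereas the 3 genes of the NALCN complex were abundant. Over all barcodes HCN2 gave 81 UMIs and was seen in 0.174% of barcodes, and HCN4 gave 412 UMIs in 0.831%. NALCN gave 100688 UMIs in 61.9% of barcodes, UNC79 gave 128746 in 62.5% and UNC80 gave 83924 in 56.2%. HCN3, another pore subunit, was detected in 0.629% of barcodes.

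HCN2, a pore subunit with fast cyclic AMP modulation, did not stand out in any cell class. Neurons held 62 HCN2 UMIs, or 0.338 CPM with a 95% Poisson interval of 0.259 to 0.433. The other named classes held 12, or 0.255 CPM with an interval of 0.132 to 0.446. The intervals, which cover counting error only, overlapped, so a neuronal excess of HCN2 was not detectable at this depth. The largest HCN2 count of any cluster was 18 UMIs, in the 7045 dentate granule-like cells of cluster 10, at 0.40 CPM. No HCN2 UMI was found in OPC, microglia, endothelial cells or the LHX6-like interneurons of cluster 16, and in OPC a count of 0 allowed a level of up to 0.544 CPM.

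HCN4, the slowest HCN subunit and the one known from thalamic and cardiac pacemaking, was found mostly in neurons. The neuron classes held 347 of its UMIs, at 1.89 CPM with a 95% Poisson interval of 1.70 to 2.10, and the other named classes held 10, at 0.213 CPM with an interval of 0.102 to 0.391. The intervals did not overlap. HCN4 was not seen in 4898 astrocytes, where a count of 0 allowed up to 0.223 CPM (3 UMIs), nor in OPC, endothelial cells, fibroblasts or choroid plexus cells.

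Within neurons HCN4 was uneven. Its pooled level was 5.71 CPM in cluster 24 (RORB CUX2-like; 74 UMIs, interval 4.48 to 7.17), 5.42 CPM in cluster 4 (ADARB2-like interneurons; 45 UMIs, 3.96 to 7.26) and 4.48 CPM in cluster 18 (58 UMIs, 3.40 to 5.79), whose leading genes include TSHZ2 and CUX2. These 3 clusters had overlapping intervals and cannot be ordered. The LHX6-like interneurons of clusters 14 and 16 had 3.19 and 1.71 CPM, and the GABAergic cluster 17 had 2.66 CPM. Low levels were seen in the main hippocampal clusters, with 0.577 CPM in the dentate granule-like cluster 10 (26 UMIs, 0.377 to 0.846) and 0.449 CPM in the pyramidal-like cluster 7 (12 UMIs, 0.232 to 0.784). Both intervals lay below those of clusters 24, 4 and 18. The small pyramidal-like cluster 22 had 2.71 CPM (6 UMIs, 0.995 to 5.90). These levels pool libraries in very unequal parts, with 1154 of the 1446 cells of cluster 24 and at most 1 cell of each of clusters 7 and 10 from sevoflurane replicate 3.

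**Figure D1:**
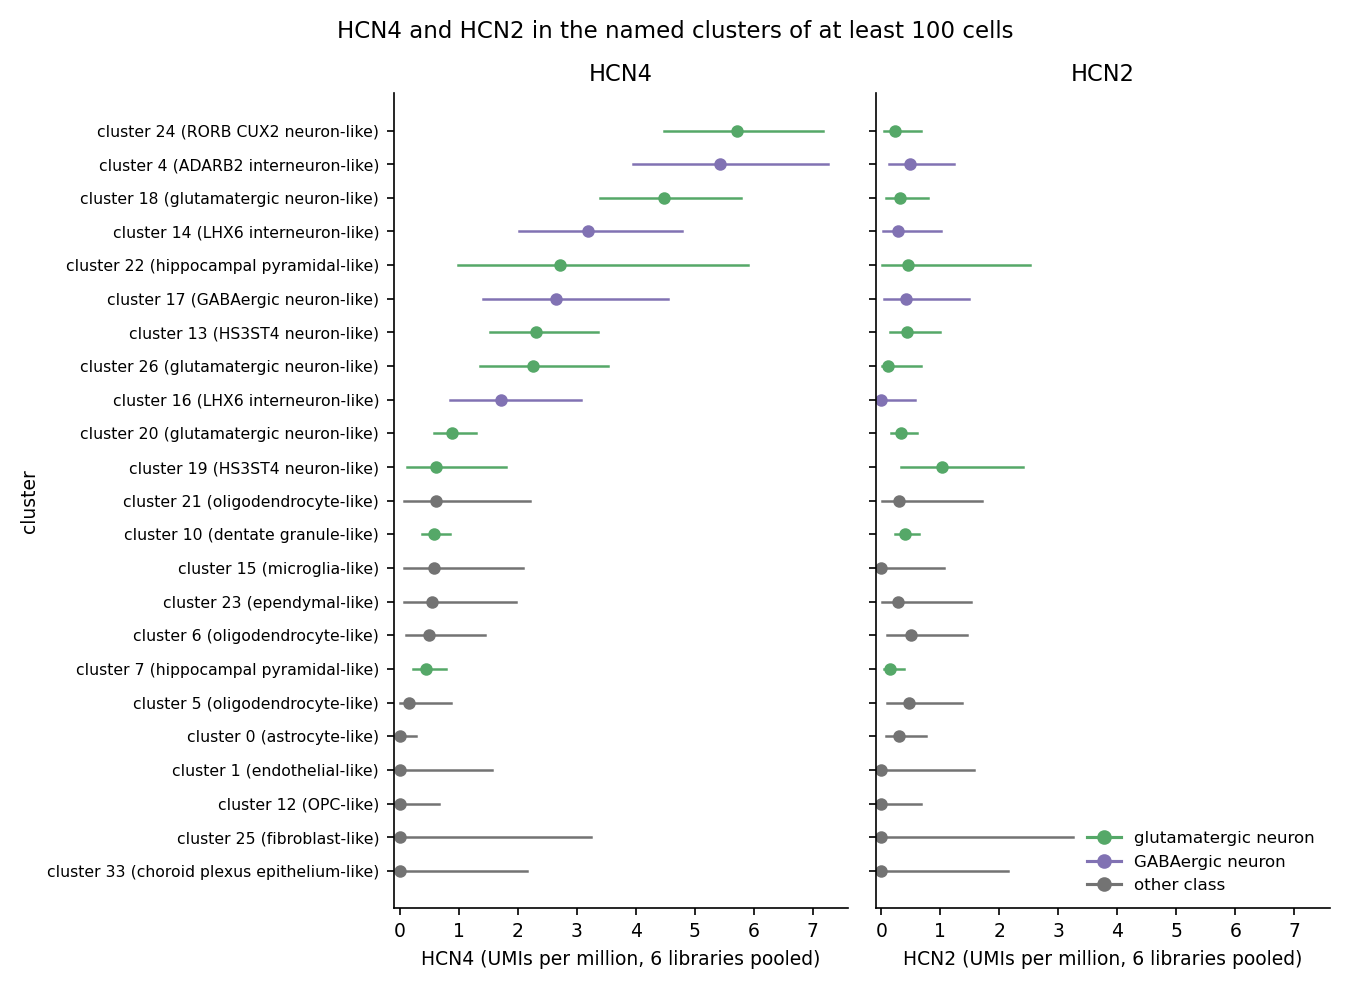
HCN4 (left) and HCN2 (right) in each named cluster of at least 100 cells, in CPM with the 6 libraries pooled; points are pooled levels and bars 95% Poisson intervals, which cover counting error only. HCN4 reaches 5.71 CPM in cluster 24 and 5.42 CPM in cluster 4, against 0.577 CPM in cluster 10, while HCN2 intervals of nearly all clusters overlap.

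NALCN formed a graded series across classes, with neurons highest, OPC close behind and astrocytes between these and the remaining glia. Its mean over the 6 libraries was 427 ± 40.4 CPM in glutamatergic neurons, 424 ± 16.4 in GABAergic neurons, 374 ± 34.4 in OPC and 273 ± 33.6 in astrocytes (SD, n = 6). It was 126 ± 24.9 in oligodendrocytes, 104 ± 25.7 in microglia and 92.9 ± 23.1 in endothelial cells. Levels were compared by edgeR's quasi-likelihood test with the library as a block and Benjamini-Hochberg adjustment over 13434 genes, with fold changes scaled by TMM factors. By this test the 2 neuron classes did not differ beyond their spread (glutamatergic over GABAergic, log2 difference 0.11 ± 0.11 SE, adjusted p = 0.493). The step between GABAergic neurons and OPC was not called (OPC over GABAergic, -0.25 ± 0.12, adjusted p = 0.0664), although it passed without sevoflurane replicate 2 (-0.33, adjusted p = 0.0160) or without sevoflurane replicate 3 (-0.31, adjusted p = 0.0335). OPC were lower than glutamatergic neurons (-0.36 ± 0.11, adjusted p = 0.00702).

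The lower steps of NALCN were clearer. OPC exceeded astrocytes by 0.49 ± 0.12 on the log2 scale (adjusted p = 0.000675), and astrocytes exceeded oligodendrocytes by 1.14 ± 0.12 (adjusted p = 8.03e-11, both by edgeR). Of all genes tested, 38.9% were called in the first of these comparisons and 49.0% in the second. Astrocytes lay above all 6 values of oligodendrocytes in every library, at 252, 330 and 297 CPM in sevoflurane astrocytes and 254, 242 and 262 CPM in oxygen astrocytes. Oligodendrocytes were above microglia by 0.43 (adjusted p = 0.00678), a call lost without TMM factors (0.28, adjusted p = 0.0720), with the listed genes allowed into the clustering (0.25, adjusted p = 0.117) or with presumed doublets kept (0.16, adjusted p = 0.313). Microglia and endothelial cells did not differ beyond their spread (log2 difference 0.20, adjusted p = 0.578).

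UNC79 and UNC80, which link to one another and stabilize NALCN at the membrane in mouse neurons, were also high in neurons and OPC and were much lower in astrocytes than NALCN was, relative to those classes. UNC79 averaged 580 ± 37.7 CPM in glutamatergic neurons, 509 ± 33.3 in GABAergic neurons and 477 ± 51.3 in OPC (SD, n = 6). It was 181 ± 27.8 in astrocytes, 132 ± 58.3 in microglia, 131 ± 28.2 in oligodendrocytes and 112 ± 26.3 in endothelial cells. UNC80 averaged 401 ± 58.3 CPM in OPC, 371 ± 65.3 in glutamatergic neurons and 354 ± 44.4 in GABAergic neurons. It fell to between 80.3 ± 15.4 CPM in astrocytes and 101 ± 11.9 CPM in microglia, with oligodendrocytes at 98.3 ± 23.4 and endothelial cells at 83.6 ± 40.4.

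Neither auxiliary subunit was called between OPC and GABAergic neurons, with a log2 difference of -0.17 ± 0.14 for UNC79 (adjusted p = 0.333) and 0.13 ± 0.13 for UNC80 (adjusted p = 0.424) by edgeR. Of the genes tested in that comparison, 49.0% were called. Against glutamatergic neurons, OPC were lower in UNC79 by 0.46 ± 0.14 (adjusted p = 0.00646), and UNC80 differed by -0.03 ± 0.13 (adjusted p = 0.877), where 56.4% of genes were called. The sign of the UNC80 value turned without TMM factors (0.14), without sevoflurane replicate 2 (0.03) or without sevoflurane replicate 3 (0.04).

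All 3 genes were lower in astrocytes, oligodendrocytes, microglia and endothelial cells than in GABAergic neurons. Astrocytes differed from GABAergic neurons by -0.74 ± 0.11 for NALCN (adjusted p = 5.32e-07), -1.6 ± 0.15 for UNC79 (adjusted p = 3.63e-12) and -2.25 ± 0.14 for UNC80 (adjusted p = 3.91e-17), by edgeR. The share of all genes called in that comparison was 61.3%. The oligodendrocyte values ran from -2.11 to -1.89 where 66.1% of genes were called, the microglial ones from -2.32 to -2.08 where 62.8% were called, and the endothelial ones from -2.52 to -2.43 where 60.6% were called. Between glutamatergic and GABAergic neurons 37.0% of genes were called and none of the 3, although UNC79 passed without sevoflurane replicate 2 (0.32, adjusted p = 0.0394). The other neighbours in the 2 orders that passed were OPC over astrocytes (1.42, adjusted p = 1.85e-10) and astrocytes over microglia (0.67, adjusted p = 0.000509, with 48.9% of genes called) for UNC79. For UNC80 they were GABAergic neurons over microglia (2.08, adjusted p = 2.70e-15) and oligodendrocytes over endothelial cells (0.44, adjusted p = 0.0236, with 46.5% of genes called). Microglia over oligodendrocytes was not called for either gene (-0.16 and -0.09, with 43.5% of genes called), nor endothelial cells over astrocytes for UNC80 (-0.18, with 49.6% called). The oligodendrocyte call was lost without any 1 of the 3 oxygen libraries (0.37 to 0.43, adjusted p = 0.0712 to 0.117), without TMM factors (0.20, adjusted p = 0.335), without the library block (adjusted p = 0.0575) and with doublets kept (0.18, adjusted p = 0.399).

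**Figure D2:**
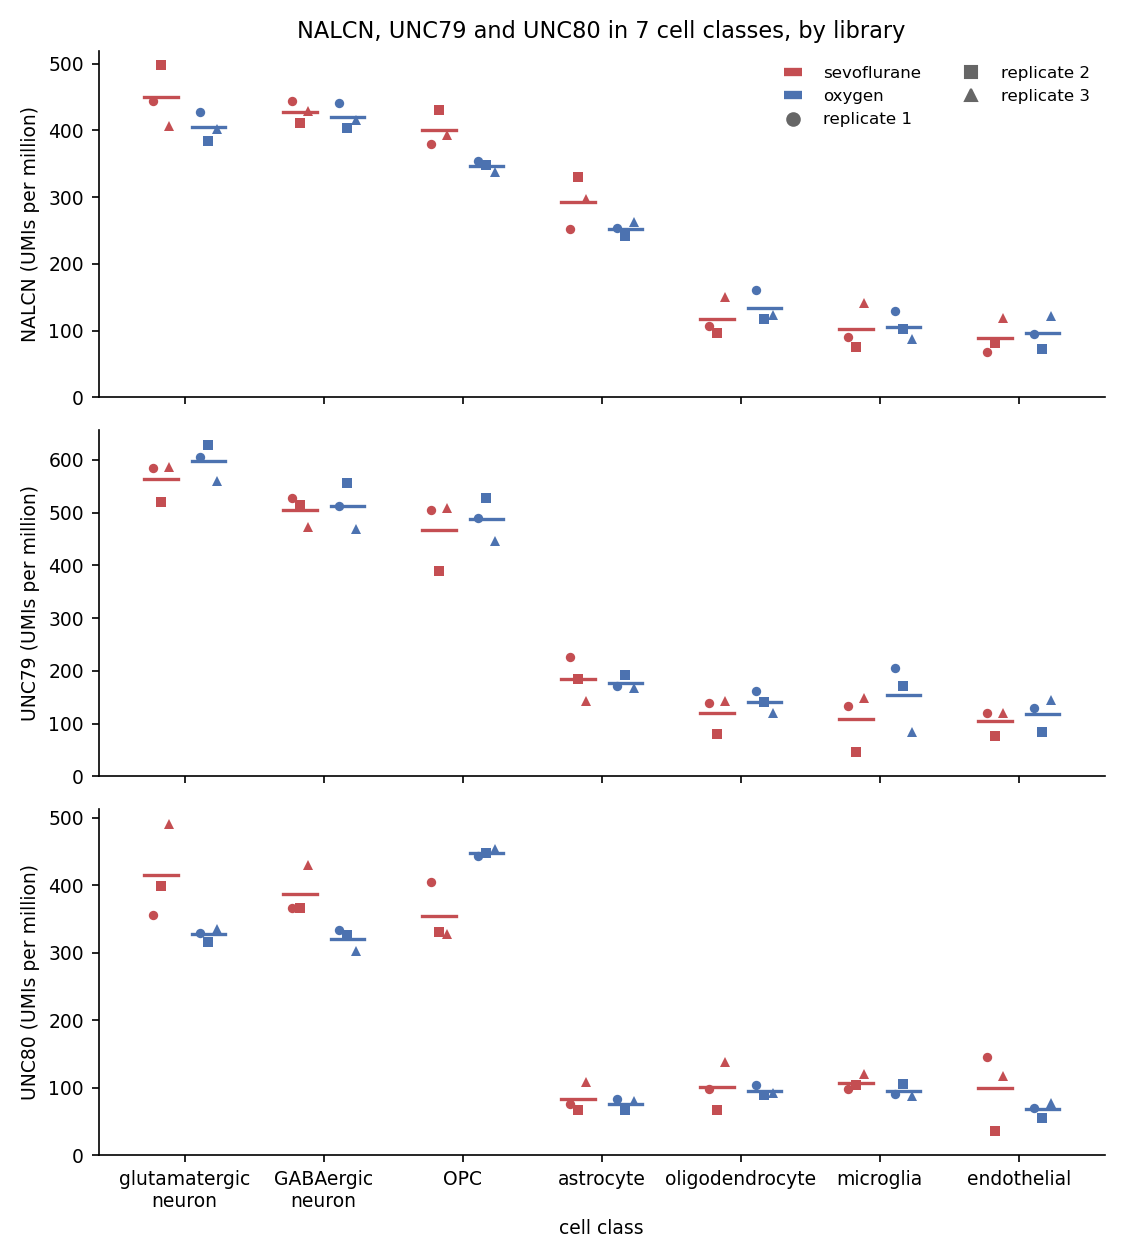
Level of NALCN, UNC79 and UNC80 (CPM, y axis) in 7 cell classes (x axis), with each point 1 library, sevoflurane in red left of oxygen in blue, the marker shape giving the replicate and the bars the group means. OPC sit beside the neurons for all 3 genes, and astrocytes are raised above the other glia for NALCN, at 273 CPM against 126 CPM in oligodendrocytes.

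Free RNA from broken cells gives droplets some UMIs of genes that their cell does not express, so the glial levels were set beside genes that mark glutamatergic neurons. As a percentage of the glutamatergic level in the same library, NALCN stood at 87.7 ± 5.17% in OPC and 63.9 ± 5.70% in astrocytes, and between 22% and 29.9% in oligodendrocytes, microglia and endothelial cells. UNC79 stood at 82.1% in OPC, 31.3% in astrocytes and 19.4% to 22.3% in the other 3 classes. UNC80 stood at 112 ± 31.0% in OPC, 21.8% in astrocytes and 22.6% to 27.5% in the other 3. NALF1, the chaperone-like partner of NALCN, was at 51.2% in OPC and 19.9% in astrocytes.

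The marker genes did not share 1 ratio. CAMK2A was at 8.34% to 13.9% of its glutamatergic level in the 5 classes and NRGN at 18.4% to 42.6%. SLC17A7, the vesicular glutamate transporter, was at 65.1% in OPC, 61.3% in astrocytes and up to 91.0% in microglia, against 25.4% in GABAergic neurons. NEUROD6 averaged only 3.36 CPM in glutamatergic neurons and was at 66.8% to 204% in the 5 classes. In all 5 classes, OPC and astrocytes included, the percentages of the 3 channel genes lay inside the range of these markers. The summed level of the 7 glutamatergic markers was 294 to 441 CPM in sevoflurane and 270 to 417 CPM in oxygen microglia, against 775 to 1044 CPM in sevoflurane and 808 to 895 CPM in oxygen glutamatergic neurons. Astrocytes were below OPC by 2.38 ± 0.14 on the log2 scale for UNC80 (adjusted p = 3.31e-17) and by 0.49 for NALCN, both by edgeR, where 38.9% of genes were called. How far free RNA sets these levels was not tested.

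**Figure D3:**
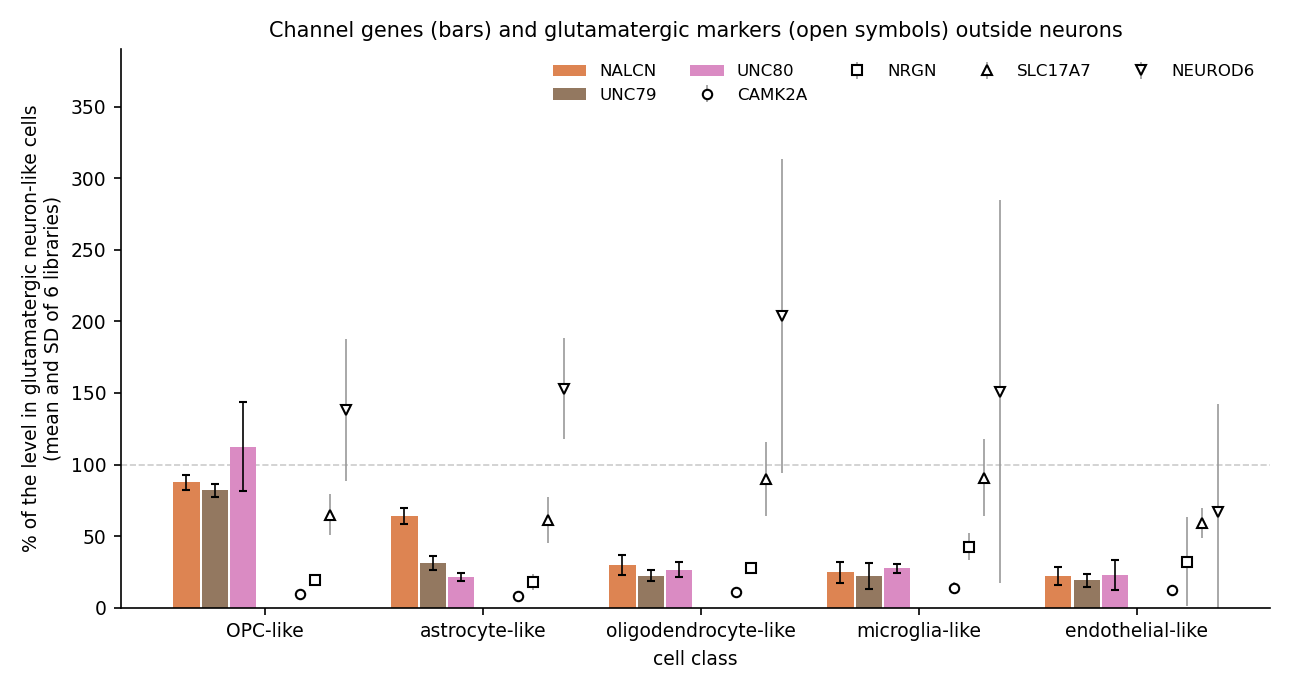
Level in 5 non-neuronal classes (x axis) as a percentage of the level in glutamatergic neuron-like cells of the same library (y axis; mean and SD of 6 libraries), for the channel genes as bars and for 4 glutamatergic marker genes as open symbols. NALCN, UNC79 and UNC80 are at 82.1% to 112% in OPC, NALCN alone of these bars is at 63.9% in astrocytes, and the markers run from 8.34% for CAMK2A to 204% for NEUROD6.

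The share of cells with at least 1 NALCN UMI separated the classes in a like way, with neurons and OPC above astrocytes and astrocytes above the other 3. Thinned to 1000 UMIs per cell, NALCN was seen in 34.0% of glutamatergic neurons, 34.1% of GABAergic neurons, 31.7% of OPC, 23.0% of astrocytes and 11.4% of oligodendrocytes, as means of 6 libraries, against 9.70% of microglia and 8.50% of endothelial cells. Without thinning the shares were 89.1%, 88.4%, 60.1%, 46.7%, 20.3%, 16.8% and 18.7% in the same order of classes. Microglia, taken as the background class, had a median depth of 1469 to 2174 UMIs, against 2301 to 3030 in astrocytes and 2568 to 3254.5 in OPC. UNC80 was seen in 32.1% of thinned OPC (60.9% unthinned) and in 7.52% of thinned astrocytes (18.5% unthinned). The thinned astrocyte value was not above the 8.56% of thinned microglia (17.4% unthinned), so no UNC80 expression was read from it.

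Among neurons the 3 genes varied less than between classes, and NALCN separated 1 group of interneurons. Cluster 16, LHX6-like, had 354, 344 and 301 CPM of NALCN in sevoflurane libraries and 338, 329 and 318 CPM in oxygen libraries. In all 6 libraries it lay below the other 4 neuron clusters that every library filled, with means of 331 ± 19.2 CPM in cluster 16, against 411 ± 54.3 in the LHX6-like cluster 14, 446 ± 45.9 in cluster 17, 458 ± 38.2 in the HS3ST4-like glutamatergic cluster 13 and 490 ± 26.2 in the ADARB2-like cluster 4 (SD, n = 6). The level tests between neuron clusters, here and below, were added after the data were seen. By edgeR with a library block, cluster 16 was lower than cluster 4 by 0.55 ± 0.08 on the log2 scale (adjusted p = 1.15e-05, with 27.9% of 10324 genes called). It was lower than cluster 13 by 0.52 (adjusted p = 1.04e-05, 40.8% called), than cluster 17 by 0.42 (adjusted p = 0.000405, 28.2% called) and than cluster 14 by 0.32 (adjusted p = 0.00760, 16.9% called).

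The 2 auxiliary subunits did not follow NALCN in cluster 16. UNC79 differed from the ADARB2-like cluster 4 by 0.20 ± 0.08 (adjusted p = 0.0521) and UNC80 by 0.03 ± 0.08 (adjusted p = 0.833), both with cluster 16 on top. UNC79 was higher in cluster 13 than in cluster 4 by 0.29 ± 0.08 (adjusted p = 0.00252), where 36.7% of genes were called. UNC80 was lower in cluster 14 than in cluster 13 by 0.23 ± 0.08 (adjusted p = 0.0336, all by edgeR), where 34.0% were called. This last call was lost without oxygen replicate 3 or without any 1 of the 3 sevoflurane libraries (adjusted p = 0.0703 to 0.173).

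Among the clusters that sevoflurane replicate 3 hardly filled, the dentate granule-like cluster 10 had the highest pooled NALCN level of any named cluster, 520 CPM, with 527 CPM of UNC79 and 428 CPM of UNC80. The pyramidal-like clusters 7 and 22 had 411 and 406 CPM of NALCN, 645 and 668 CPM of UNC79 and 309 and 313 CPM of UNC80. Cluster 26, mostly from sevoflurane replicate 3, had the highest UNC80 level, 519 CPM, beside 370 CPM of NALCN. These pooled levels mix libraries in unequal parts and were not tested.

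**Figure D4:**
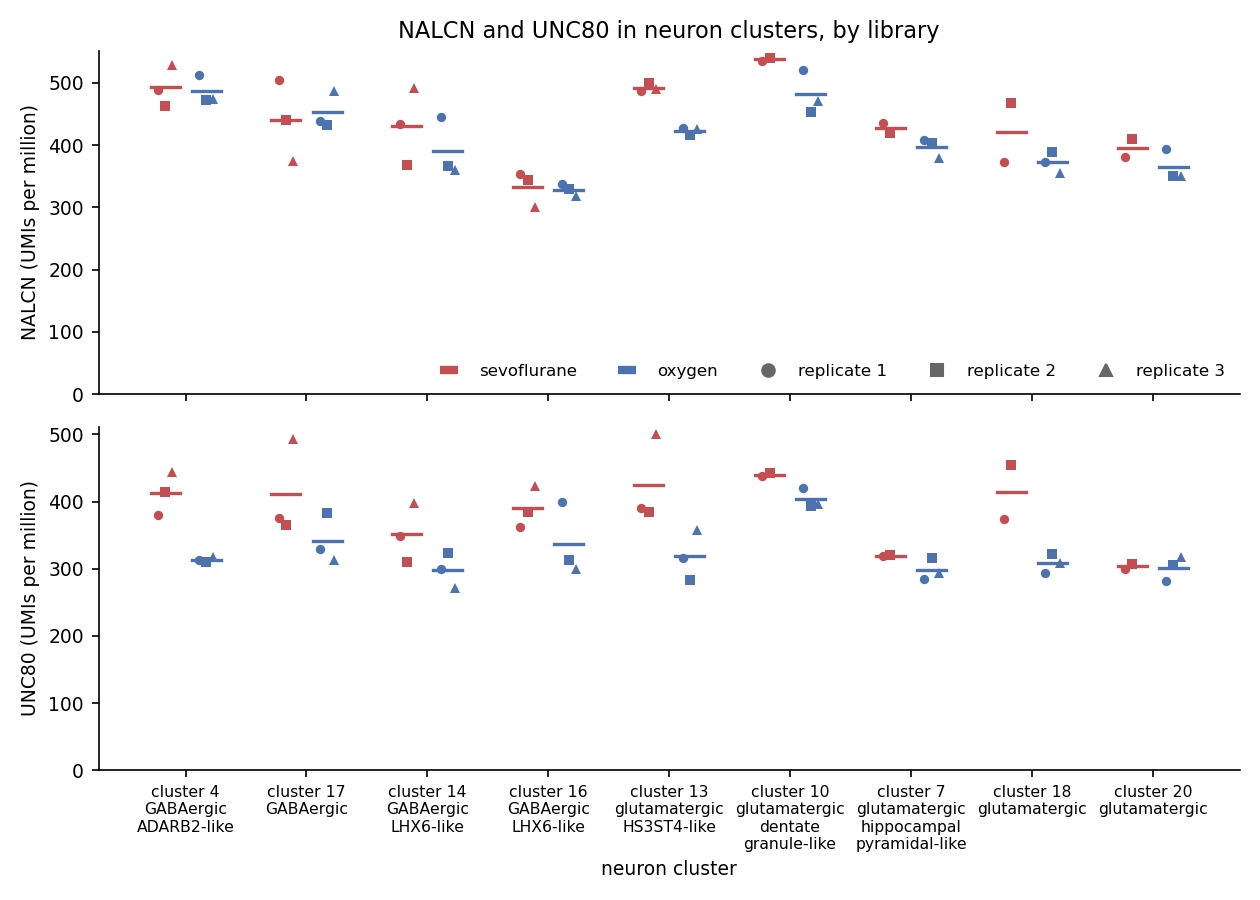
NALCN (top) and UNC80 (bottom) in 9 neuron clusters (x axis; CPM on the y axis), 1 point per library, sevoflurane in red left of oxygen in blue, with bars at the group means; clusters 10, 7, 18 and 20 lack sevoflurane replicate 3. NALCN is lowest in cluster 16 at 331 CPM, and UNC80 in cluster 4 is at 380 to 445 CPM in sevoflurane libraries and 310 to 318 CPM in oxygen libraries.

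Levels of the 3 genes of the complex went together across all named clusters but not across neuron clusters. Over the 26 named clusters, log2 levels correlated at r = 0.81 for NALCN and UNC79, 0.80 for NALCN and UNC80 and 0.90 for UNC79 and UNC80. Over the 13 neuron clusters of at least 100 cells the same pairs gave -0.31, 0.15 and -0.10. With the smaller ones included, the 16 named neuron clusters gave -0.62, 0.41 and -0.53. The clusters share libraries and differ in depth, and no test was made.

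By the likeness of pattern over the 26 clusters, among 11183 genes, NALCN was closest to NRG2 (r = 0.94), ASTN1 (0.94), TVP23A (0.92), KCND3 (0.92) and RNFT2 (0.91). The genes closest to UNC79 included RGS7, MAP2, NALF1 and CRMP1 (0.95 to 0.96), so that its partner NALF1 was among them. UNC80 was closest to GLRB, ATCAY, PAK3, PCNX2 and GPR176 (0.94 to 0.95). HCN4 was closest to CPNE5 (0.86), ANKRD24, ASIC2, PCYT1A and NPM2 (0.81). HCN2, with few UMIs, reached only 0.63, with RXFP1, before EXD2, NKAIN2, ADCK2 and UBE3D (0.55 to 0.57).

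Between sevoflurane and oxygen, none of the 5 genes was called wherever it was tested, in the 7 classes, 10 neuron clusters or all cells. The test was edgeR's quasi-likelihood test, with Benjamini-Hochberg adjustment over all genes that passed its filter on low counts. Among the classes, NALCN, UNC79 and UNC80 passed that filter in all 7, HCN4 in the neuron classes alone and HCN2 in none. In the neuron clusters only NALCN, UNC79 and UNC80 passed it, so HCN2 and HCN4 were not tested there. Over all cells all 5 genes passed it. HCN4 over all cells had a log2 fold change of -0.68 (adjusted p = 0.815, edgeR), and -2.00 without sevoflurane replicate 3 (adjusted p = 0.174). Few genes of any kind were called. Among the clusters with 6 libraries the share was 0.03% in cluster 4, 0.964% in cluster 13, 0.011% in cluster 14, 0.0% in cluster 16 and 0.467% in cluster 17. In the classes the share was 0.0% of genes in GABAergic neurons, 0.00575% in glutamatergic neurons, 0.0329% in OPC, 0.018% in astrocytes, 0.0171% in oligodendrocytes, 0.0912% in microglia, 0.0% in endothelial cells and 0.0% over all cells. At an unadjusted p under 0.05, 1505 genes passed in GABAergic neurons, 307 in endothelial cells and 1942 over all cells. DESeq2 called 203 genes in GABAergic neurons, with HCN4 at an adjusted p of 0.796 and UNC80 at 0.798.

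HCN2 over all cells had 0.451, 0.471 and 0.207 CPM in sevoflurane libraries, against 0.234, 0.257 and 0.227 CPM in oxygen libraries. The groups overlapped, and the log2 fold change was 0.60 ± 0.39 (adjusted p = 0.671, edgeR). Pooled over neurons, HCN2 had 0.436 CPM in sevoflurane cells (41 UMIs, 95% Poisson interval 0.313 to 0.592), against 0.234 CPM in oxygen cells (21 UMIs, 0.145 to 0.358). These intervals cover counting error only and leave out the spread between libraries, so no treatment difference was read from them. Over all cells the sevoflurane libraries held 20, 18 and 8 HCN2 UMIs and the oxygen libraries 10, 10 and 9.

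HCN4 in GABAergic neurons had 2.41, 1.6 and 3.10 CPM in sevoflurane libraries, against 4.09, 3.25 and 5.44 CPM in oxygen libraries. All 3 sevoflurane values lay below the lowest oxygen value. Groups that did not overlap, in either direction, were found for 18.1% of genes tested in this class. These values rest on 5 to 17 UMIs per sevoflurane library and 17 to 25 per oxygen library. The log2 fold change was -0.85 ± 0.37 (unadjusted p = 0.0473, adjusted p = 0.429, edgeR), and it ranged between -1.11 and -0.66 when single libraries were left out. HCN4 was seen in 1.68 ± 0.208% of sevoflurane and 2.82 ± 0.568% of oxygen GABAergic neurons before thinning (SD, n = 3 each; exact permutation p = 0.1, the smallest that 3 against 3 allows). After thinning to 1000 UMIs the shares were 0.178% and 0.539%, near the level of single UMIs.

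The GABAergic and the ADARB2 interneuron marker lists were also lower in sevoflurane GABAergic neurons. The summed level of the 6 GABAergic markers was 7236 to 9648 CPM in sevoflurane and 10287 to 10741 CPM in oxygen GABAergic neurons, and that of the 7 ADARB2 interneuron markers was 805 to 1292 CPM in sevoflurane and 1449 to 1831 CPM in oxygen neurons, with no marker of either list at 0. The ADARB2 list was lower under sevoflurane in other classes too, at 57.2 to 74.8 CPM in sevoflurane and 125 to 138 CPM in oxygen glutamatergic neurons. Cluster 4 held 171, 101 and 278 of the 471, 330 and 938 GABAergic neurons in the sevoflurane libraries. In the oxygen libraries it held 246, 253 and 241 of 693, 710 and 635. Within the ADARB2-like cluster 4, where HCN4 was highest among interneurons, it had 4.20, 3.40 and 5.84 CPM in sevoflurane libraries, against 6.70, 4.08 and 7.29 CPM in oxygen libraries, and the groups overlapped. The part of these markers in the HCN4 difference was not tested.

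In glutamatergic neurons HCN4 had 0.457, 0.373 and 3.49 CPM in sevoflurane libraries, against 3.09, 1.10 and 1.79 CPM in oxygen libraries. Sevoflurane replicates 1 and 2 were below all oxygen values and replicate 3 was above them. The log2 fold change was -0.62 ± 0.89 (adjusted p = 0.907, edgeR), and -2.35 without sevoflurane replicate 3 (adjusted p = 0.217). HCN4 UMIs in this class came from clusters that libraries filled unequally: of the 74 in cluster 24, 55 were from sevoflurane replicate 3, and all 58 in cluster 18 were from oxygen libraries. Neuron composition and treatment cannot be told apart for HCN4 in this class.

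NALCN, the pore of the leak channel, showed overlapping groups in both neuron classes. It had 444, 498 and 407 CPM in sevoflurane and 427, 385 and 402 CPM in oxygen glutamatergic neurons. In GABAergic neurons it had 443, 411 and 430 CPM under sevoflurane and 440, 404 and 415 CPM under oxygen. No group was wholly above the other in either class, and the log2 fold changes were 0.05 ± 0.12 with a 95% interval of -0.23 to 0.33 (adjusted p = 0.951) and -0.04 ± 0.10 with an interval of -0.25 to 0.18 (adjusted p = 0.931), both by edgeR. In OPC the 3 sevoflurane values of 379, 430 and 394 CPM lay above the oxygen values of 355, 349 and 338 CPM, and groups were apart for 11.8% of genes there. The OPC fold change was 0.19 ± 0.11 (adjusted p = 0.885, edgeR).

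In the HS3ST4-like cluster 13, NALCN had 486, 500 and 490 CPM in sevoflurane libraries, against 428, 417 and 425 CPM in oxygen libraries. The groups were apart, as for 21.1% of genes in that cluster, but the fold change scaled by TMM was only 0.12 ± 0.12 (adjusted p = 0.718, edgeR). Over the 10 neuron clusters tested, the NALCN fold change was above 0 in 5 and below 0 in 5, between -0.12 and 0.13. Its groups were apart in 3 of them, each with sevoflurane higher, namely cluster 13 and, over 5 libraries, clusters 7 and 10. In clusters 7 and 10, 30.9% and 33.4% of genes were apart.

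UNC79 had 584, 519 and 586 CPM in sevoflurane glutamatergic neurons and 606, 628 and 559 CPM in oxygen ones, and the groups overlapped. Its log2 fold change was -0.19 ± 0.12 (95% interval -0.48 to 0.11, adjusted p = 0.765, edgeR). It was below 0 in 8 of 10 neuron clusters, between -0.31 and 0.03, with a median of -0.15, and none was called. The clusters come from the same libraries, so these signs are not independent. UNC79 groups were apart in 1 of the 10, cluster 20, with sevoflurane lower over 5 libraries, where 29.9% of genes were apart. In microglia, the class named in the study's title, UNC79 had 134, 46.2 and 148 CPM under sevoflurane and 206, 171 and 84.1 CPM under oxygen, with a fold change of -0.42 ± 0.41 (adjusted p = 0.947, edgeR). No member's groups were apart in microglia, astrocytes, oligodendrocytes or endothelial cells, where 12.4%, 12.7%, 14% and 10.8% of genes had groups apart.

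UNC80, the subunit that ties UNC79 to NALCN, had group values apart in opposite directions in neurons and OPC. In glutamatergic neurons it had 355, 399 and 490 CPM in sevoflurane libraries, against 329, 316 and 336 CPM in oxygen libraries. In GABAergic neurons it had 367, 366 and 430 CPM under sevoflurane, against 333, 327 and 303 CPM under oxygen. In OPC it had 405, 331 and 327 CPM under sevoflurane, against 443, 447 and 453 CPM under oxygen. The groups did not overlap in any of the 3 classes, with sevoflurane higher in both neuron classes and lower in OPC. Groups were apart for 16.9% of genes in glutamatergic neurons, 18.1% in GABAergic neurons and 11.8% in OPC.

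None of these UNC80 differences passed the adjusted threshold. In OPC the means were 354 ± 44.2 CPM under sevoflurane and 448 ± 5.17 CPM under oxygen (SD, n = 3 each), with a log2 fold change of -0.35 ± 0.12 (95% interval -0.61 to -0.10, unadjusted p = 0.0105, adjusted p = 0.581, edgeR). In GABAergic neurons the means were 388 ± 36.5 and 321 ± 15.9 CPM under sevoflurane and oxygen, with a fold change of 0.21 ± 0.11 (adjusted p = 0.501). In glutamatergic neurons they were 415 ± 69.0 and 327 ± 10.2 CPM, with 0.24 ± 0.13 (adjusted p = 0.739). Sevoflurane replicate 3 raised both neuron values, which were 0.13 and 0.11 without it, while the OPC value was -0.32 without it. Glutamatergic neurons of the libraries also sat in different clusters. Cluster 26, highest in UNC80, was mostly from sevoflurane replicate 3, and cluster 10 held 1386, 3061 and 0 cells of the sevoflurane libraries against 1317, 293 and 988 cells of the oxygen libraries. Neuron composition and treatment cannot be told apart for UNC80 in the glutamatergic class as a whole.

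The difference of the UNC80 effects was tested directly, by limma on the within-library difference of the log2 levels of a pair of classes. The effect in OPC minus that in GABAergic neurons was -0.57 ± 0.20 (unadjusted p = 0.0215, adjusted p = 0.627 over 9000 genes), and minus that in glutamatergic neurons it was -0.59 (adjusted p = 0.798 over 9091 genes), a test added after the values were seen. Without sevoflurane replicate 3 these were -0.47 and -0.44. Of all genes, 0.0% were called in the first test and 0.011% in the second. In OPC, the summed level of the 6 pan-neuronal markers, 5 of them in the matrix, was 1417 to 1590 CPM under sevoflurane and 1626 to 1919 CPM under oxygen, with none of the 5 at 0, so these markers and UNC80 were both lower in sevoflurane OPC. Other neuron lists in OPC differed from this: the 7 glutamatergic markers summed to 213 to 260 CPM under sevoflurane and 193 to 278 CPM under oxygen, the 6 GABAergic markers to 2751 to 3746 and 3037 to 3496 CPM under sevoflurane and oxygen, and the 6 dentate granule markers to 2035 to 2318 and 1524 to 1836 CPM. The part of neuron RNA in the UNC80 difference was not tested.

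Shares of cells with UNC80 were in the direction of its level in both neuron classes and OPC. After thinning, UNC80 was seen in 34.5 ± 3.09% of sevoflurane and 27.7 ± 1.68% of oxygen glutamatergic neurons, and in 30.8 ± 1.07% of sevoflurane and 33.4 ± 0.751% of oxygen OPC (SD, n = 3 each; exact permutation p = 0.1 in both, the smallest possible). In thinned GABAergic neurons they were 31.6 ± 1.66% under sevoflurane and 27.5 ± 3.17% under oxygen (exact permutation p = 0.2). Unthinned, the shares were 89.3% and 85.9% in sevoflurane and oxygen glutamatergic neurons and 59.2% and 62.6% in sevoflurane and oxygen OPC (exact permutation p = 0.2 in both). In endothelial cells the thinned share, 4.79% under sevoflurane and 9.42% under oxygen, went against the level, whose fold change was 0.63, and no order was read from it. In microglia, as background, the thinned shares were 8.56% under sevoflurane and 8.57% under oxygen.

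Among single neuron clusters, the ADARB2-like cluster 4 had the largest UNC80 difference. It had 380, 414 and 445 CPM in sevoflurane libraries, against 313, 310 and 318 CPM in oxygen libraries, and the groups were apart, as for 15.6% of genes there. The log2 fold change was 0.34 ± 0.12 (unadjusted p = 0.0182, adjusted p = 0.421, edgeR), and 0.29 without sevoflurane replicate 3. Over the 10 neuron clusters the UNC80 fold change was above 0 in 9, between -0.04 and 0.34, with a median of 0.18. The clusters come from the same libraries, so these signs are not independent. The groups were apart in 5 of the 10, namely clusters 4, 13, 7, 10 and 18. In cluster 13, 21.1% of genes were apart. Clusters 7, 10 and 18 were compared over 5 libraries, where 30.9% to 42.2% of genes were apart. In clusters 14, 16 and 17, where the UNC80 groups overlapped, 12.5% of genes or more were apart. The dentate granule-like cluster 10 had 438 and 442 CPM in 2 sevoflurane libraries, against 421, 394 and 397 CPM in oxygen libraries, with a fold change of 0.03. There 33.4% of genes were apart with 5 libraries. The pyramidal-like cluster 7 had 0.04, where 30.9% of genes were apart. In clusters 18, 20 and 22 the shares of genes apart were 42.2%, 29.9% and 23.2%. The shares called were 0.00758% in cluster 7, 0.962% in cluster 18, 0.0546% in cluster 20 and 0.246% in cluster 22.

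Over all cells UNC80 had 308, 356 and 420 CPM in sevoflurane libraries, against 292, 271 and 279 CPM in oxygen libraries. The groups were apart, as for 17.9% of genes, with a log2 fold change of 0.31 ± 0.13 (adjusted p = 0.496, edgeR) and 0.18 without sevoflurane replicate 3. In such whole-library sums the make-up of cell types and the level per cell cannot be told apart.

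**Figure D5:**
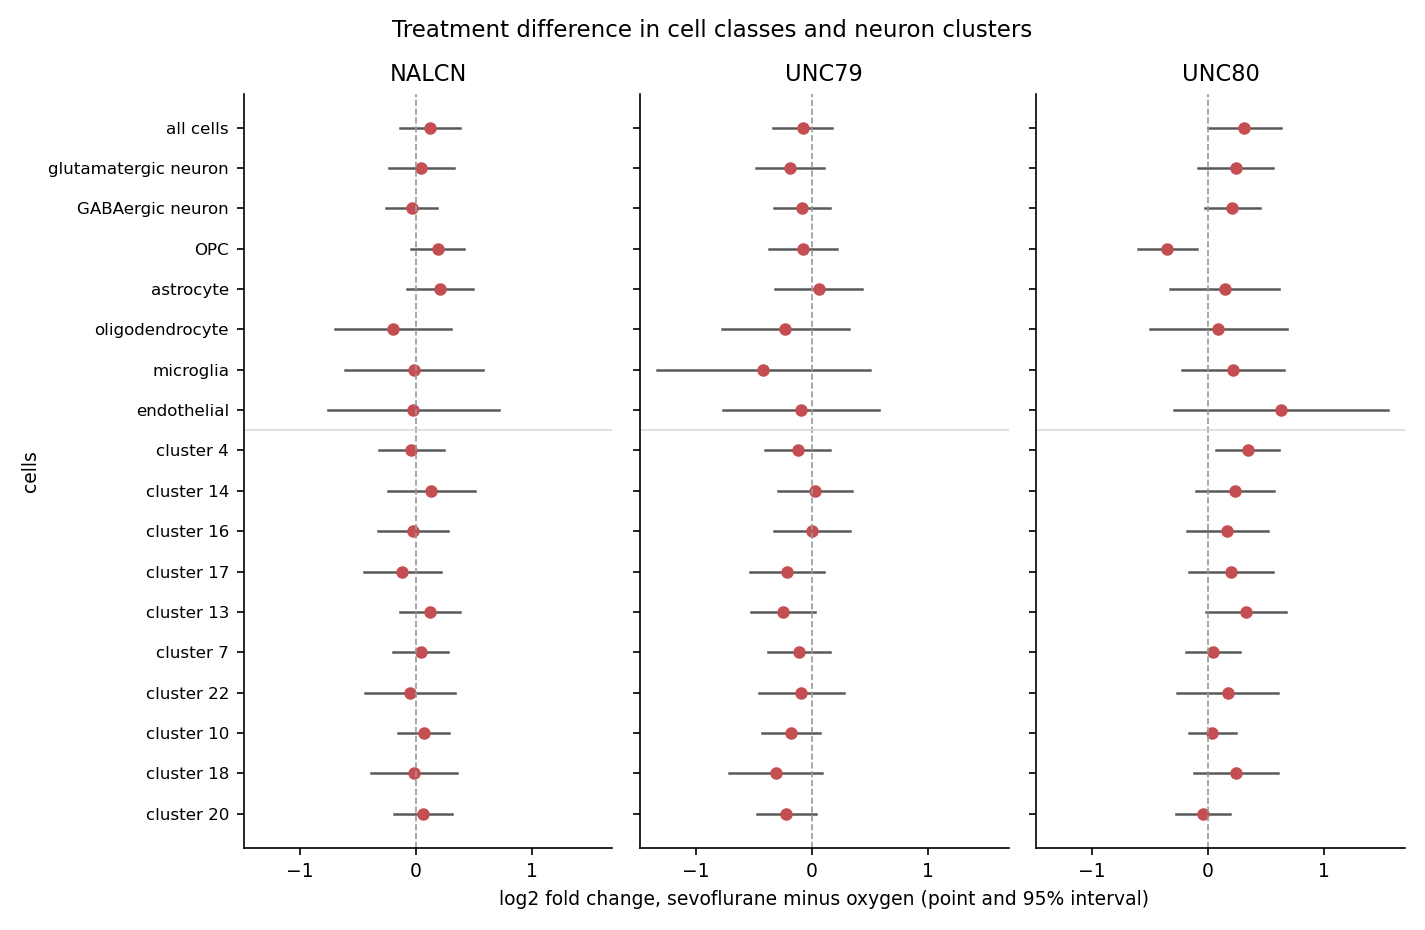
Log2 fold change of sevoflurane over oxygen (x axis) with its 95% interval for NALCN, UNC79 and UNC80 in all cells, 7 classes and 10 neuron clusters (y axis), by edgeR; clusters 7, 22, 10, 18 and 20 use 5 libraries. UNC80 is above 0 in both neuron classes (0.24 and 0.21) and in 9 of 10 neuron clusters, and at -0.35 in OPC. The clusters share libraries, and no point passed the adjusted threshold.

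Beside the channels, 40 partner genes were examined: 16 that form, bind or regulate HCN channels, 9 around NALCN and 15 other subthreshold cation channels. None was called in any class or over all cells, with 34 tested in GABAergic neurons, 38 in glutamatergic neurons, 26 in OPC and 22 in microglia. In GABAergic neurons the 14 tested HCN partners had a median log2 fold change of -0.08, with 5 above 0, and the 6 NALCN partners -0.16, with 1 above 0, against 0.00 over all 13117 genes. In glutamatergic neurons the medians were -0.10 for 15 HCN partners and -0.10 for 8 NALCN partners, against 0.02 over all genes. The 15 other channels had a median of 0.05 there.

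PEX5L (TRIP8b), which traffics HCN subunits, was higher in oligodendrocytes than in neurons, above GABAergic neurons by 2.05 (adjusted p = 5.28e-10) and above glutamatergic neurons by 1.48 (adjusted p = 4.14e-07). In oligodendrocytes it had 3268, 4491 and 3375 CPM under sevoflurane, against 2615, 2582 and 2879 CPM under oxygen; the groups were apart, as for 14% of genes, with the libraries' cells in different clusters as given above, and the fold change of 0.44 ± 0.14 was not called (adjusted p = 0.546, edgeR). NALF1 was higher in glutamatergic than in GABAergic neurons by 0.98 (adjusted p = 4.53e-06) and had a treatment fold change of -0.27 ± 0.11 in GABAergic neurons (adjusted p = 0.410). NALF2 and HCN3 averaged 1.22 and 1.89 CPM in GABAergic neurons, too few to compare.

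In single neuron clusters 3 partner calls appeared. KCNE2, a small accessory subunit known to associate with HCN channels in heterologous cells, had 140, 102 and 180 CPM in sevoflurane libraries of the GABAergic cluster 17, against 45.9, 40.2 and 44.8 CPM in oxygen libraries. It rose by 1.61 ± 0.23 (adjusted p = 0.0250, edgeR; 0.467% of genes in that cluster were called), a call lost without oxygen replicate 1, 2 or 3 or without sevoflurane replicate 1 (adjusted p = 0.0508 to 0.184), and with a replicate block (adjusted p = 0.0529). Over all GABAergic neurons KCNE2 had 91.0, 75.6 and 107 CPM under sevoflurane, against 42.7, 41.9 and 40.1 CPM under oxygen, with 1.08 ± 0.14 just short of the threshold (adjusted p = 0.0510, edgeR; 1.34e-05 by DESeq2). KCNE2 is also known from choroid plexus epithelium, a type held almost wholly by sevoflurane replicate 1. The 5 choroid plexus markers, 4 of them in the matrix, summed to 217, 236 and 35.2 CPM in sevoflurane and 139, 287 and 210 CPM in oxygen GABAergic neurons. Their part in the KCNE2 values was not tested.

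In the dentate granule-like cluster 10, over 5 libraries, 2 partners fell. ADCY8, a calcium-stimulated adenylyl cyclase, had 8.97 and 10.1 CPM in sevoflurane libraries, against 22.7, 21.1 and 19.4 CPM in oxygen libraries, and fell by 1.23 ± 0.18 on the log2 scale (adjusted p = 0.0331, edgeR). PEX5L had 463 and 477 CPM in sevoflurane libraries, against 682, 882 and 911 CPM in oxygen libraries, and fell by 0.90 (adjusted p = 0.0403, edgeR). In this cluster 0.488% of genes were called. The ADCY8 call was lost without any 1 of the 5 libraries (adjusted p = 0.0573 to 0.128, edgeR). The PEX5L call was lost without oxygen replicate 2, oxygen replicate 3 or sevoflurane replicate 2 (adjusted p = 0.0881 to 0.162), and both were lost with a replicate block (0.0555 for ADCY8 and 0.0545 for PEX5L).

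Other partners with small unadjusted p in a class were not called. They included TRPC4, ADCY8 and SCN3A in GABAergic neurons (-0.72, -0.47 and -0.39), SCN3B and KCTD3 in OPC (-0.73 and 0.52), ADCY8 and IRAG1 in astrocytes (-1.14 and 1.24), NTSR1 in glutamatergic neurons (-0.74), NEDD4L in microglia (-0.78), FLNA in oligodendrocytes (-0.58) and SCN2A in endothelial cells (0.63), with adjusted p between 0.156 and 1.00 by edgeR.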

How the data were processed

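The deposited matrices hold raw UMI counts per gene and barcode made by the authors with Cell Ranger 6.1.1, per the file headers; the submitters' processing notes also name CASAVA 1.8 and Seurat. For the genome build and annotation, the entry is: not given in the sources used here. No coordinates are printed. Of the 29320 genes, 15188 had a symbol in the files and 1397 gained one from a table of gene names.

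Every barcode had at least 500 UMIs and 200 genes. Doublets were marked with scrublet (scanpy 1.11.5) at 1 threshold for all libraries, 0.19, the median of the automatic ones, chosen after these were seen. Cells were clustered with the Leiden method (2000 variable genes, 30 principal components, 15 neighbours, resolution 1), with the 5 genes and their partners kept out of the clustering, and clusters were named from marker lists. UMIs were summed per class and library, and classes with at least 20 cells in every library were tested with edgeR 4.0.16 (quasi-likelihood F test, TMM factors, adjusted p under 0.05), in R 4.3.3. Levels between classes or clusters used the library as a block. The level tests between clusters were added after the data were seen. Differences of effects used limma 3.58.1. DESeq2 1.42.0 was an alternative test, and some of its results are given with the treatment effects. The closing section counts the treatment results recomputed over the alternatives and names those in which a sign changed.

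Shares of cells were taken after thinning each cell to 1000 UMIs; shallower cells were left out (0 to 8 neurons and up to 148 oligodendrocytes per library). Intervals are exact at 95%, and a count of 0 is read as an upper limit of 3 counts; both cover counting error only. Ependymal cells, fibroblasts and choroid plexus cells were too few in some libraries to test. The members and lists were chosen with earlier results of these data known. Of the partners, HCN3, PEX5L, NALF1 and NALF2 and, per class, up to 4 others with the smallest unadjusted p are named. Results for some partner, marker and similar-pattern genes are not reported here.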

Additional observations from a re-analysis of the deposited data

Results flagged for a closer look

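The UNC80 fold change, not called in any class, had opposite signs in OPC and in neurons. The log2 fold change, sevoflurane over oxygen, in OPC minus that in glutamatergic neurons was -0.59, and in OPC minus that in GABAergic neurons it was -0.56, from edgeR's fold changes. Every sevoflurane library lay on one side of the oxygen libraries in OPC and on the other side in each neuron class. This separation was the rule by which the result was flagged. Groups were apart for 11.8% of genes in OPC, 16.9% in glutamatergic neurons and 18.1% in GABAergic neurons. The direct test of these differences by limma did not pass after adjustment (adjusted p = 0.798 and 0.627).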

How the results depend on the processing

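No treatment effect on a member was called under any alternative run, so the sign changes here are among uncalled values. Over the classes, all cells and UNC80 in clusters, 462 recomputed treatment results kept direction and side of the threshold and 19 changed sign. Outside this tally, leaving out 1 library also gave ranges across 0 for NALCN in clusters 4 (-0.080 to 0.011), 7 (-0.027 to 0.098), 16 (-0.083 to 0.045), 18 (-0.15 to 0.058) and 22 (-0.14 to 0.0012), and for UNC79 in clusters 14 (-0.067 to 0.10) and 16 (-0.089 to 0.074). On mean log-normalised values the sign changed for NALCN (0.036) and UNC79 (0.0093) in GABAergic neurons and UNC79 in all cells (0.035), and with doublets kept for UNC79 in endothelial cells (0.0044). Leaving out 1 library in turn gave ranges across 0 for NALCN in GABAergic neurons (-0.070 to 0.0074), glutamatergic neurons (-0.012 to 0.12), microglia (-0.31 to 0.11) and endothelial cells (-0.29 to 0.18). The ranges for UNC79 were -0.16 to 0.054 in OPC, -0.12 to 0.19 in astrocytes, -0.29 to 0.053 in endothelial cells and -0.41 to 0.011 in oligodendrocytes. Those for UNC80 were -0.11 to 0.29 in astrocytes, -0.25 to 0.33 in oligodendrocytes and -0.0020 to 0.081 in cluster 7. Members called between classes ranged between 0 and 1 for glutamatergic over GABAergic neurons and between 0 and 1 for OPC over GABAergic neurons, and the OPC count was also 1 when the listed genes could enter the clustering. UNC80 in OPC over glutamatergic neurons ranged between -0.10 and 0.043 and was 0.14 without TMM factors. UNC80 in microglia over oligodendrocytes turned positive without TMM factors (0.050), with the listed genes in the clustering (0.049) and with doublets kept (0.093), as did UNC79 with doublets kept (0.021) and UNC80 in endothelial cells over astrocytes without TMM factors (0.081). The cause of these changes was not tested. Same-numbered libraries did not pair (correlations of -0.28, -0.13 and -0.32 in all cells); with a replicate block UNC80 in OPC was -0.36 (adjusted p = 0.986, edgeR), and no member was called. HCN2 and HCN4 rest on few UMIs, which limits what could be seen of them.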
